A study of Mus musculus with 12 samples.

Results

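The genes of N-linked glycosylation in the endoplasmic reticulum (ER) were followed through a series on the transcription factors Xbp1 and Mist1 in antibody-secreting cells. A gene belonged to the set if its name, after an overlap suffix in the files was taken off, stood in a list of 43 enzymes and subunits that build, transfer and trim the N-linked sugar. All 43 genes were found in each of the 10 RNA-seq libraries, out of 24189 genes that the libraries have in common. They fall into 6 steps, namely 5 genes of dolichol supply, 5 of mannose activation, 5 of dolichol-linked monosaccharides, 12 of oligosaccharide assembly, 10 of the oligosaccharyltransferase complex and 6 of trimming.

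N-linked glycans are built on dolichol, a long lipid of the ER membrane, before they reach a protein. Sugars are added to the lipid in a fixed order, and the oligosaccharyltransferase moves the finished oligosaccharide as a block onto asparagine residues of a nascent chain. Glucosidases then trim its glucose residues, which governs binding to the lectin chaperones calnexin and calreticulin. Antibody heavy chains are N-glycosylated, so that plasma cells carry a heavy load of this pathway.

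The plasmablasts (PBs) were made in induced germinal center cultures, in which B cells of C57BL/6 mice grow on 40LB feeder cells, and were sorted on day 8 by surface markers that included CD138 (positive) and CD23 (negative). Their genotypes were Xbp1 fl/fl, which served as the control, Cd23-Cre Xbp1 fl/fl, in which Cre deletes Xbp1 from maturing B cells on, and Bhlha15 CreER/CreER, in which CreER sits in the gene for Mist1. The last group was set against the same Xbp1 fl/fl PBs, so that the CreER insertion and the control genotype cannot be told apart there. Splenic plasma cells (PCs) were sorted as TACI+CD138+ cells on day 7 after immunization with NP-KLH in alum, from Cd23-Cre Bhlha15 fl/fl mice and from controls that the labels call wildtype and the study's methods describe as Bhlha15 fl/fl. The floxed Bhlha15 allele also encodes a biotin acceptor at the N-terminus of Mist1. The controls of both stages are named without Cd23-Cre, so that the Cre transgene and the loss of Xbp1 or Mist1 cannot be told apart. Each of the 5 groups has 2 libraries. A further pair of experiments mapped Mist1 binding in PBs after 4 days of LPS, from Bhlha15 fl/fl R26 BirA/BirA mice, whose BirA ligase biotinylates the tagged Mist1.

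Values are TPM, a measure of transcript abundance, which the authors corrected for gene length and scaled to 1000000 in each library after immunoglobulin and T cell receptor genes had been left out. The number of reads behind them is unknown, and 11514 to 12024 genes reached 1 TPM in a library. Bhlha15 read 176 and 159 TPM in control PBs, 0.21 and 0.55 in Bhlha15 CreER/CreER PBs, 258 and 242 in control PCs and 14.4 and 16.6 in Cd23-Cre Bhlha15 fl/fl PCs. It read 3.57 and 2.60 TPM without Xbp1, so that these cells were low in the Mist1 transcript as well. Xbp1 itself was counted over the whole gene and read 1981 and 2024 TPM there, while the control had 3168 and 3043. The summed markers of the cell types that could accompany the sort also differed. In PBs, 7 feeder fibroblast genes summed to 1734 to 1883 TPM without Xbp1 against 1189 to 1423 in Xbp1 fl/fl, and 8 neutrophil genes summed to 133 to 134 against 10.3 to 11.6, with Elane at 0 in both groups. The sum of the 5 macrophage genes found went the other way, to 32.6 to 35.1 TPM from 134.5 to 136.5. This fall is that of Cd68, at 16.9 and 18.7 TPM without Xbp1 against 128 and 131. Lyz2 rose instead, to 15.1 and 15.8 TPM from 5.86 and 5.22, and Csf1r, Emr1 and Mrc1 stayed under 1 TPM in both groups. The 7 T cell genes summed to 9.29 to 10.8 against 6.70 to 8.09 TPM. In Bhlha15 CreER/CreER PBs the feeder, neutrophil, macrophage and T cell genes summed to 947 to 1572, 3.89 to 9.36, 151 to 167 and 6.27 to 9.22 TPM. Of 7 plasma cell markers, all were above 1 TPM in every group. Their sum was 7246 to 7286 TPM without Xbp1 and 19274 to 20078 in the control, but most of this gap is Mzb1, at 3707 and 3547 against 15573 and 14995 TPM, and part is Xbp1 itself. Prdm1 read 239 and 296 TPM without Xbp1 and 205 and 175 with it, and Irf4 865 and 971 against 683 and 651. Tnfrsf13b read 275 and 274 against 252 and 221, and Sdc1 157 and 157 against 166 and 157. Tnfrsf17 was lower, at 22.9 and 16.1 against 32.0 and 33.2, so that the plasma cell markers moved in both directions. In PCs, the neutrophil genes summed to 461 to 988 TPM in controls and 560 to 845 in Cd23-Cre Bhlha15 fl/fl, and the T cell genes to 59.6 to 60.3 and 70.0 to 89.1. The part of these cells in the results below was not tested, and in bulk RNA fewer cells of a type and less RNA per cell cannot be told apart.

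The 43 genes together took 1.53% and 1.46% of all TPM in Xbp1 fl/fl control PBs and 1.52% and 1.56% in Bhlha15 CreER/CreER PBs. In Cd23-Cre Xbp1 fl/fl PBs the share was 0.561% and 0.554%. The share in the Xbp1-deleted libraries thus lay below that of every other library, since PCs gave 1.29% and 1.25% in controls and 1.38% and 1.34% in Cd23-Cre Bhlha15 fl/fl. Most of it came from the transferase complex, which supplied 72.1% and 72.7% of the summed TPM of the 43 genes in the control PBs, 56.6% to 57.9% in those without Xbp1 and 63.7% to 63.9% in control PCs. On this length-corrected scale the levels within Xbp1 fl/fl PBs ran from 2029 ± 100.6 TPM (SD, n = 2) for Krtcap2, a small subunit of the complex, down to 1.29 ± 0.101 TPM for Uggt2, a relative of the glucosyltransferase that re-tags misfolded glycoproteins.

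**Figure D1:**
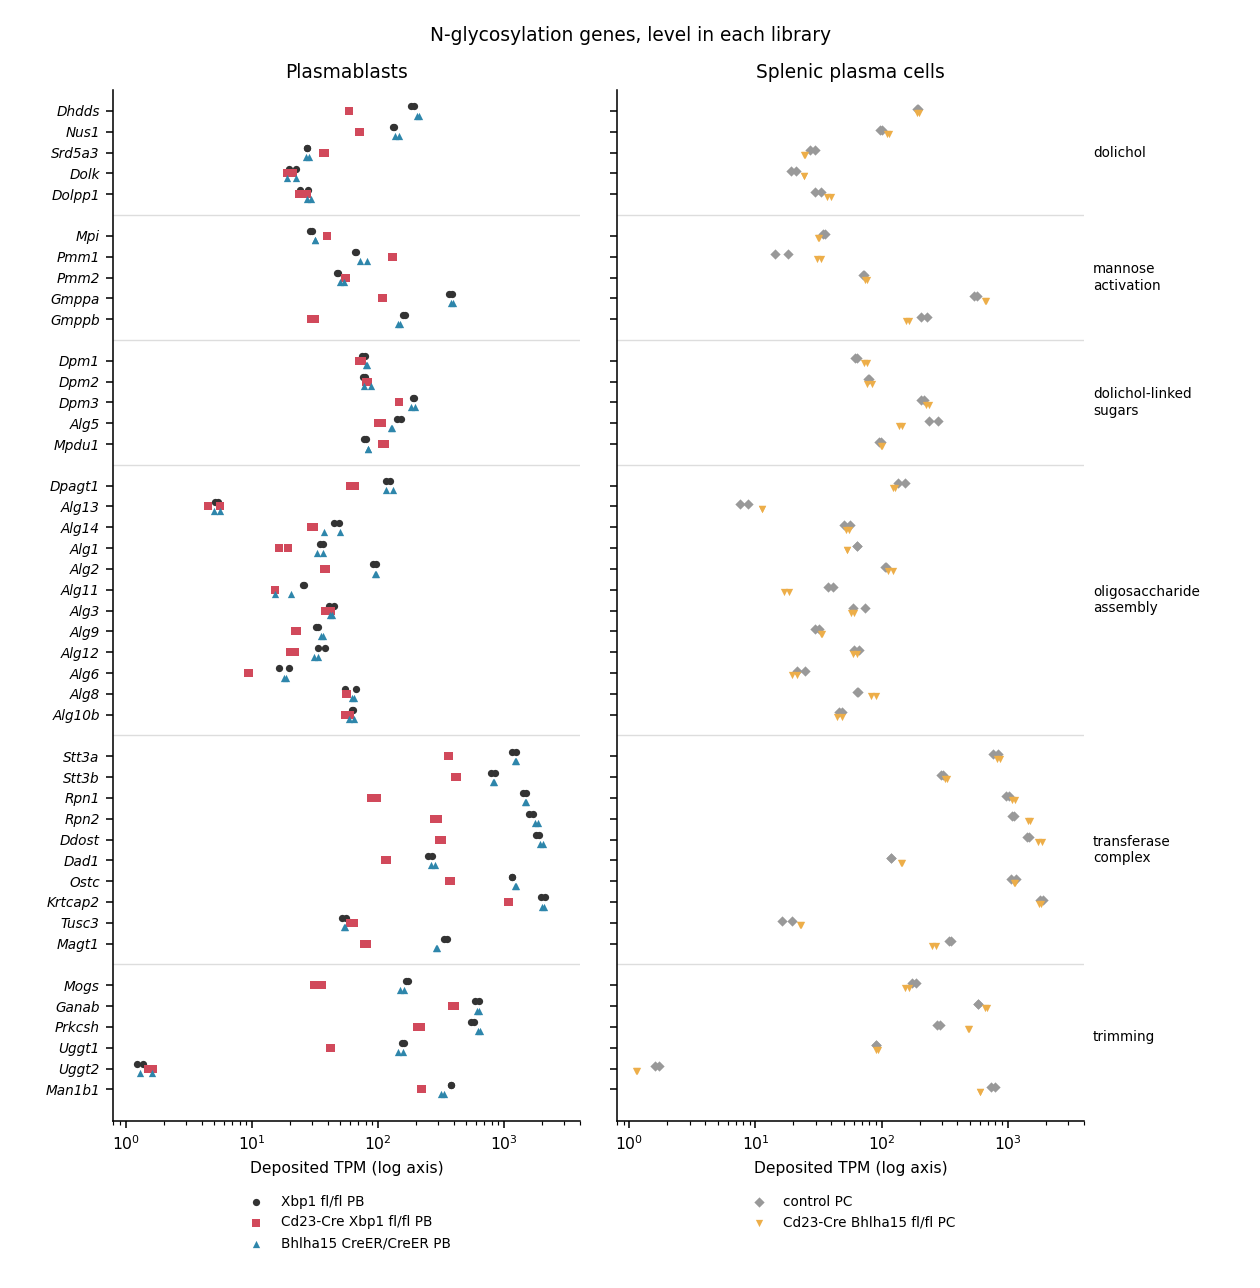
Deposited TPM (log axis) of each of the 43 genes in every library, with genes in rows by step, PBs on the left and PCs on the right, and 1 point per library. In the transferase complex the Cd23-Cre Xbp1 fl/fl PBs (squares) sit to the left of both other PB genotypes for 9 of the 10 genes, and Tusc3 is the exception.

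Differences between groups were tested by limma after log2 transformation of TPM, scaled between libraries by the median of ratios and raised by 0.1, so that a fold change of a low gene is understated. A gene is called lower or higher at an adjusted p under 0.05 (Benjamini-Hochberg over all genes tested), and is past the stricter threshold of the study at a fold above 3 with a mean above 5 TPM in the higher group. The study used its threshold on fits of read counts by DESeq2, so that the genes past it here are not the study's own calls. The labels do not say that the libraries of a group came from separate mice, so that p-values measure the spread between these libraries. Where groups are said not to overlap, this only describes them, as 2 libraries against 2 cannot go below p = 0.333 in an exact permutation test. The share of all genes without overlap was not counted. All 43 genes passed the filter on low values in both models. Of them, 8 carry the overlap suffix (Dolpp1, Gmppb, Mpdu1, Alg1, Alg10b, Rpn1, Rpn2 and Uggt1) and for 10 the mm9 annotation places exons of another gene over their own, so that their reads are uncertain.

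Most glycosylation genes were lower in PBs without Xbp1, with the lowest values in the transferase complex. Of the 43 genes, 30 were lower in Cd23-Cre Xbp1 fl/fl than in Xbp1 fl/fl PBs, 2 were higher and 11 passed in neither direction. Among all 12125 genes tested, 18.0% were called lower and 10.3% higher. The median log2 fold change was -0.97 over the 43 genes and 0.00 over all genes tested. Past the study threshold were 12 of the 43 genes, all lower, where 1.63% of all genes were lower and 0.239% higher. By step, the median was -1.89 for the transferase complex, -1.30 for trimming, -0.90 for oligosaccharide assembly, -0.29 for dolichol-linked monosaccharides, -0.28 for dolichol supply and -0.00 for mannose activation. The size of these values depends on the scaling: with TPM as deposited the median of all genes moved to 0.21, that of the 43 genes to -0.77 and that of mannose activation to 0.20, while the 43 genes split into 28 lower and 4 higher. All genes tested then split into 1357 lower and 3423 higher, in place of 2186 and 1250. Of the 30 genes called lower, 28 kept the call and the direction in each of 14 alternative settings, and Dpm1 and Alg10b lost it in at least 1.

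**Figure D2:**
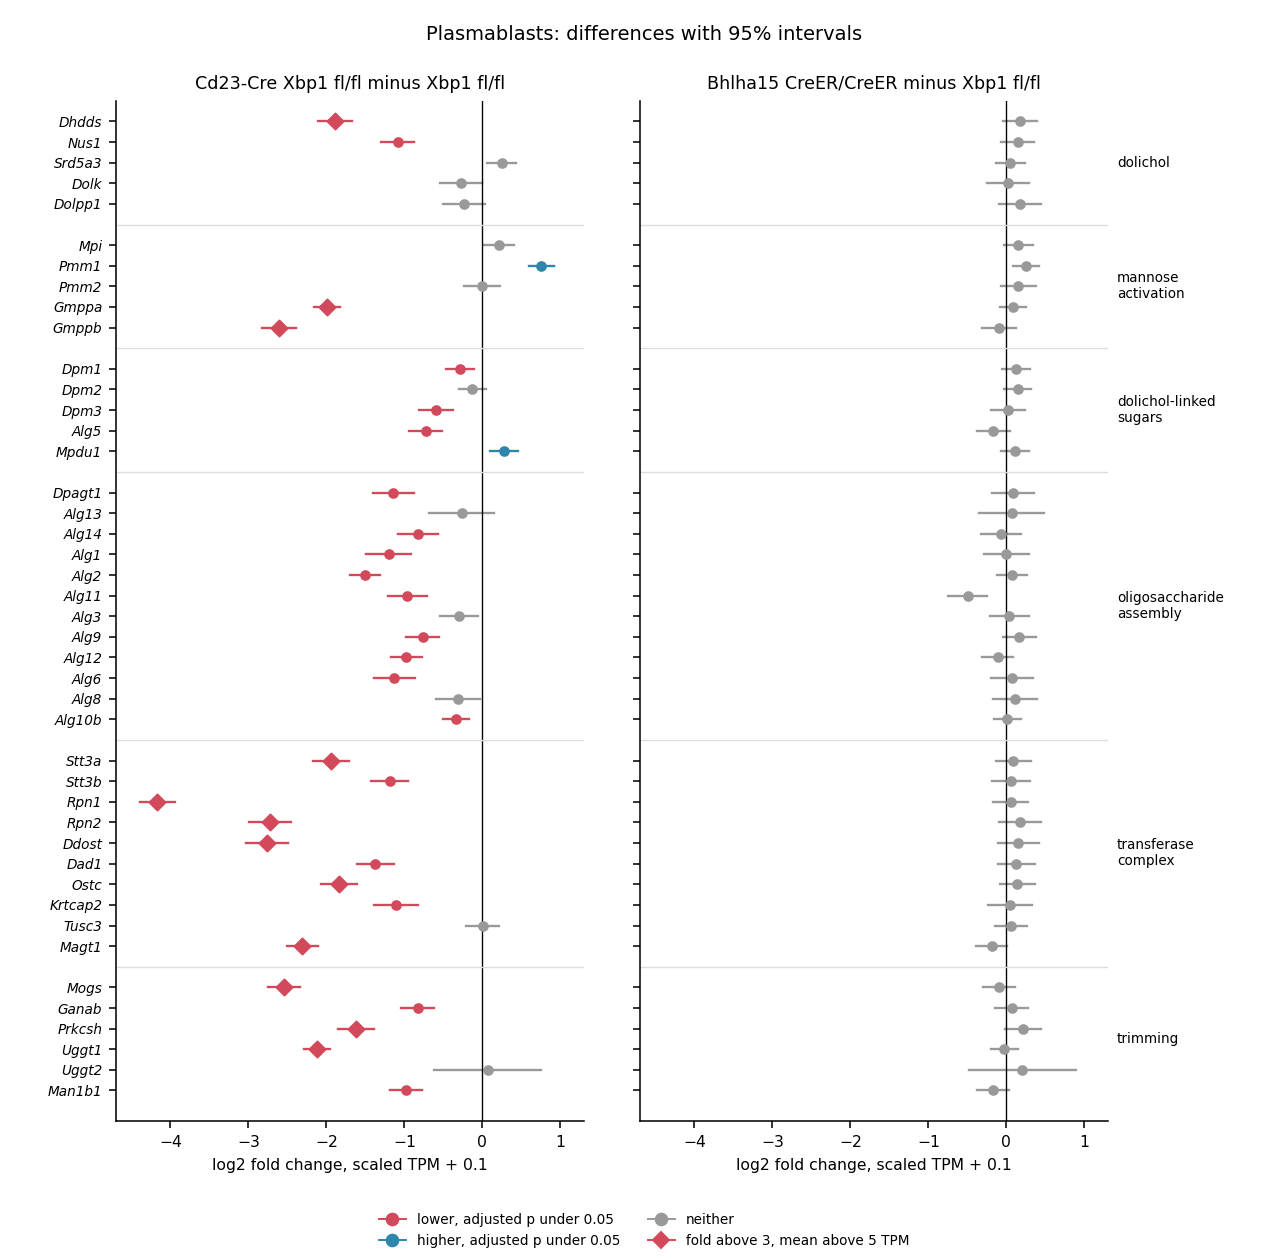
Log2 fold change (scaled TPM + 0.1) with its 95% interval for each of the 43 genes in rows by step, for Cd23-Cre Xbp1 fl/fl (left) and Bhlha15 CreER/CreER PBs (right), each against the same Xbp1 fl/fl libraries. On the left 30 genes are called lower and 12 of them are drawn as diamonds for the study threshold, with Rpn1 farthest at -4.17, whereas on the right no gene is called.

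In the transferase complex, Rpn1 fell furthest of all 43 genes. Rpn1 encodes ribophorin I, a subunit thought to hold substrates near the catalytic one, and lies on chromosome 6 of mm9. It read 1485 and 1428 TPM in the control and 97.9 and 88.8 TPM without Xbp1, so that the groups stood far apart. This amounts to -4.17 ± 0.10 on the log2 scale (SE, adjusted p = 1.5e-07, limma), a fold of 18.0. The structural subunits Ddost and Rpn2 came next. Ddost read 1899.8 and 1787 TPM in the control against 319.9 and 306 without Xbp1, a log2 fold change of -2.76 ± 0.12 (adjusted p = 1.7e-06). Rpn2 read 1709.7 and 1595 TPM against 299.7 and 279, a log2 fold change of -2.72 ± 0.12 (adjusted p = 1.9e-06). Neither gene had overlapping libraries between the genotypes. Exons of Rpn2 overlap those of 4922505G16Rik on the other strand.

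The catalytic subunits of the complex, Stt3a and Stt3b, fell to different extents. Stt3a, whose complexes act on chains during translocation, read 1241 and 1165 TPM in the control and 366 and 358 without Xbp1 (log2 fold change -1.94 ± 0.10, adjusted p = 4.4e-06). Stt3b, whose complexes act on sites that were skipped, read 854 and 787 TPM and then 424 and 406 (-1.19 ± 0.10, adjusted p = 7.6e-05). The ratio of Stt3a to Stt3b was 1.45 and 1.48 in the control and 0.863 and 0.881 without Xbp1, so that the order of the 2 subunits turned around in the Xbp1-deleted libraries. Ostc, a subunit of the Stt3a complex, fell from 1158 and 1153 to 379 and 367 TPM (-1.84 ± 0.10). Dad1 and Krtcap2, small subunits that the complexes share or that accompany Stt3a, were lower by -1.37 and -1.11 and stayed under the study threshold.

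Magt1 and Tusc3 are alternative oxidoreductase subunits of the Stt3b complex. Magt1 read 354 and 333 TPM in the control and 77.1 and 82.6 without Xbp1 (-2.31 ± 0.09, adjusted p = 1.0e-06). Tusc3 read 55.6 and 51.9 TPM in the control and 64.6 and 59.9 without Xbp1, a log2 fold change of 0.00 with a 95% interval of -0.21 to 0.21, and was the only gene of the complex that was not called. Magt1 was 6.35 and 6.42 times as high as Tusc3 in the control and 1.19 and 1.38 times as high without Xbp1. These ratios are taken within a library and do not depend on its scaling, and since 2 libraries against 2 cannot go below p = 0.333 in an exact permutation test, they are given as a description.

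**Figure D3:**
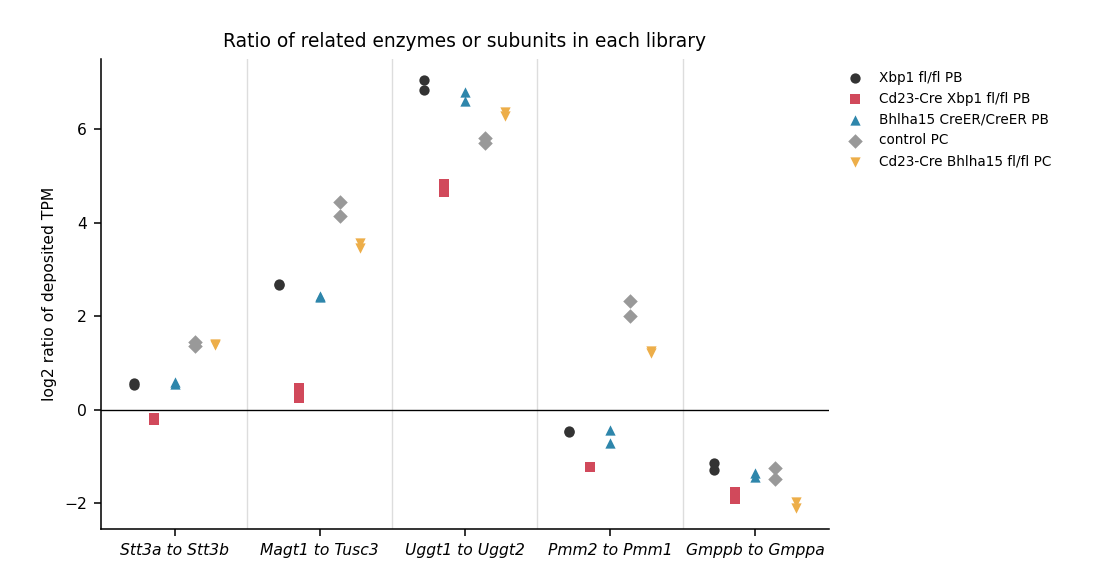
Log2 ratio of deposited TPM for 5 pairs of related genes, with 1 point per library and the 5 groups side by side within a pair (a value of 0 means equal levels). The Cd23-Cre Xbp1 fl/fl PBs (squares) lie below the Xbp1 fl/fl PBs (circles) in all 5 pairs, and for Stt3a to Stt3b they are the only group under 0.

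Of the trimming genes, 5 of 6 were lower. Mogs, the glucosidase that removes the outermost glucose, read 172 and 168 TPM in the control and 36.0 and 31.3 without Xbp1 (-2.54 ± 0.09, adjusted p = 7.6e-07). The subunits of glucosidase II, which removes the glucose residues that remain, were both lower, the regulatory Prkcsh with 577 and 548 against 219 and 203 TPM (-1.62 ± 0.10) and the catalytic Ganab by -0.83. Prkcsh was the gene just inside the study threshold, with a fold of 3.08, and Alg2, with 2.84, the one just outside. Uggt1, which adds glucose back to unfolded glycoproteins, read 162 and 155 TPM and then 41.6 and 42.5 (-2.12 ± 0.08, adjusted p = 7.9e-07). Its relative Uggt2 was between 1.22 and 1.65 TPM in all 6 PB libraries, with a log2 fold change of 0.07 and a 95% interval of -0.62 to 0.75. Man1b1, the ER mannosidase that marks glycoproteins for degradation, was lower by -0.98.

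Mannose activation split within the step. Gmppb and Gmppa, the catalytic and the regulatory subunit of the enzyme that makes GDP-mannose, were both past the study threshold. Gmppb fell from 166 and 158 to 31.9 and 29.4 TPM (-2.61 ± 0.10, adjusted p = 9.1e-07) and Gmppa from 365 and 386 to 107 and 110.2 TPM (-1.99 ± 0.07, adjusted p = 1.0e-06). Exons of Gmppb overlap those of Rnf123 on the other strand. Pmm1, a phosphomannomutase, rose instead, from 66.8 and 66.1 to 128 and 131 TPM (0.76 ± 0.07, adjusted p = 0.00011), with no overlap between the genotypes. Pmm2, the phosphomannomutase that glycosylation is known to depend on, read 48.7 and 47.3 against 54.7 and 55.9 TPM, a log2 fold change of -0.00 with an interval of -0.23 to 0.22, and Mpi, which feeds mannose into this route, was not called at 0.22.

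In dolichol supply 2 of 5 genes were lower and none was called higher. Dhdds and Nus1, which together form the prenyltransferase that makes the dolichol chain, were both lower. Dhdds read 195 and 184 TPM in the control and 58.8 and 59.0 without Xbp1 (-1.89 ± 0.09, adjusted p = 3.9e-06), and Nus1 was lower by -1.09 ± 0.09. Srd5a3, which reduces the polyprenol to dolichol, read 27.6 and 27.2 against 36.9 and 38.2 TPM. Its log2 fold change of 0.25 missed the threshold (adjusted p = 0.053), and it passed as higher with TPM as deposited, where it was 0.46. It also passed as higher with quantile normalization, with a filter of 5 TPM and in a model of only the groups compared. Dolk, the kinase that charges dolichol, and Dolpp1, which recycles it, gave -0.28 and -0.23 and were not called.

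Among the genes of dolichol-linked monosaccharides none passed the study threshold. Alg5, which makes dolichol-linked glucose, read 154 and 143 TPM in the control and 99.6 and 107 without Xbp1 (-0.73 ± 0.09, adjusted p = 0.0007). Of the subunits of dolichol-phosphate mannose synthase, Dpm3 was lower by -0.59, Dpm1 by -0.29 and Dpm2 was not called at -0.13. Dpm1 lost its call with TPM as deposited (-0.08, adjusted p = 0.31). Mpdu1, which is needed for the use of dolichol-linked sugars, was called higher, with 77.9 and 80.9 against 108 and 114 TPM (0.27 ± 0.08, adjusted p = 0.030), and lost the call when any of the 4 compared libraries was left out.

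In oligosaccharide assembly 9 of 12 genes were lower, and all 12 had a value below 0. The lowest was Alg2, a mannosyltransferase of the cytosolic face, with 96.4 and 90.8 TPM in the control and 38.5 and 37.5 without Xbp1 (-1.50 ± 0.08, adjusted p = 6.0e-06). Alg1, which adds the innermost mannose, was lower by -1.20, Dpagt1, which starts the oligosaccharide, by -1.14, and Alg6, which adds the innermost glucose, by -1.13. The enzyme that completes the N-acetylglucosamine pair consists of Alg13 and Alg14, of which Alg14 was lower by -0.83 and Alg13 was not called at -0.27. Alg13 read 4.50 to 5.62 TPM in these 4 libraries, the lowest level in the step, and shares near-identical sequence with Glt28d2. Alg3 and Alg8, which act on the lumenal face, were not called at -0.30 and -0.31.

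The promoters of these genes were searched for letters known from the unfolded protein response. RefSeq (GRCm38.p6) gave a window from 250 bases before to 50 after the start for 37 of the 43 genes, all but Alg11, Alg2, Dpagt1, Gmppb, Ostc and Tusc3. Windows were read on both strands for TGACGTGG, the unfolded protein response element, for its core GACGTG, for the ER stress response element, which is CCAAT and CCACG with 9 bases of any kind between them, and for CAGCTG, an E-box. TGACGTGG includes the core. On the opposite strand the CCACG of the ER stress element reads CGTGG, which lies within TGACGTGG, so that these motifs can share letters. Over all 27025 genes with a window, TGACGTGG was present in 0.714%, GACGTG in 7.15%, the ER stress element in 0.137% and CAGCTG in 18.3%. Over the 8991 of these genes that were tested in PBs the shares were 1.11%, 11.2%, 0.167% and 17.8%. None of the 37 genes held TGACGTGG. The core was found in 4 genes (10.8%), Dhdds, Dpm2, Dad1 and Mogs, which is near its share of 11.2% among tested genes. The ER stress element was found in 1 gene (2.70%), Alg12, and CAGCTG in 4 (10.8%), Pmm1, Alg9, Alg12 and Uggt1. The 5 stretches with an element of the unfolded protein response are shown as examples. They include Dhdds and Mogs, which were past the study threshold, and Dpm2, which was not called. Each runs 5′ to 3′ in the direction of its gene, ends before the start, and has the element in capitals.
Dhdds (chr4:134000883-134000915, minus strand): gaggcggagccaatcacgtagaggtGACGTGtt
Mogs (chr6:83115448-83115503, plus strand): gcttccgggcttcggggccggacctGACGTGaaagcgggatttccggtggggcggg
Dad1 (chr14:54254045-54254100, minus strand): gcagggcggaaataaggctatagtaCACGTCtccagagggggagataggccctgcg
Dpm2 (chr2:32570781-32570836, plus strand): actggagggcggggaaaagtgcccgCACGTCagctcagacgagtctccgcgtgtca
Alg12 (chr15:88819495-88819563, minus strand): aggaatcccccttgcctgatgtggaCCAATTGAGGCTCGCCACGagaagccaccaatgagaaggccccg
The core begins 8 bases before the start in Dhdds, 33 in Mogs, 146 in Dad1 and 52 in Dpm2, and in Dad1 and Dpm2 it is read on the opposite strand. Dhdds and Mogs were lower by -1.89 and -2.54, Dad1 by -1.37 and Alg12 by -0.97, while Dpm2 had -0.13. Of all 43 genes 30 were lower, so that lower values do not set the genes with an element apart. Rpn1, the gene with the deepest fall, held none of the 4 motifs in its window. A match is a string of letters and does not show that a factor binds there.

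The genes that act on N-glycans around this core were set beside it. Of 24 neighbouring genes, 23 were tested in PBs, 15 were lower, 2 were higher and 3 were past the study threshold, with a median log2 fold change of -0.61. Over all genes tested, 18.0% were called lower and 10.3% higher, and 1.63% were lower past the study threshold. Edem2, an ER mannosidase that sends glycoproteins to degradation, read 844 and 809 TPM in the control and 137 and 137 without Xbp1 (-2.80, adjusted p = 6.0e-07). Mgat2, a Golgi enzyme of complex glycan branching, read 369.9 and 359 TPM and then 115 and 115 (-1.87), and Edem3 read 146 and 139 and then 46.7 and 51.9 TPM (-1.74).

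In Bhlha15 CreER/CreER PBs none of the 43 genes was called by limma against Xbp1 fl/fl PBs, where 0.272% of all 12125 genes were called lower and 0.0495% higher. At an unadjusted p under 0.05 the count was 2, namely Alg11 and Pmm1, among 1267 of all genes. The median log2 fold change of the 43 genes was 0.07, which is less than the spread of that median between libraries of one group (SD up to 0.11), and their values ran from -0.49 to 0.25. Rpn1 read 1485 and 1459.8 TPM here, next to 1485 and 1428 in the control, and its difference of 0.06 had a 95% interval of -0.17 to 0.28. Alg11, a mannosyltransferase that acts after Alg2, read 20.4 and 15.4 TPM against 25.6 and 25.9 (-0.49 ± 0.11, adjusted p = 0.15). Pmm1 read 81.9 and 72.4 TPM against 66.8 and 66.1 (0.25 ± 0.07, adjusted p = 0.26). This comparison and the one for Xbp1 share the Xbp1 fl/fl libraries.

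The 2 mutant PBs were also set directly against each other. This comparison uses the Cd23-Cre Xbp1 fl/fl libraries of the first one and is not independent of it. In Cd23-Cre Xbp1 fl/fl PBs 34 of the 43 genes were lower than in Bhlha15 CreER/CreER PBs and 1, Pmm1, was higher, where 17.8% and 9.34% of all genes were called lower and higher. The median log2 fold change was -0.90, and 12 genes were past the study threshold, all lower, beside 1.66% of all genes lower and 0.239% higher. Bhlha15 was low in both of these genotypes.

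**Figure D4:**
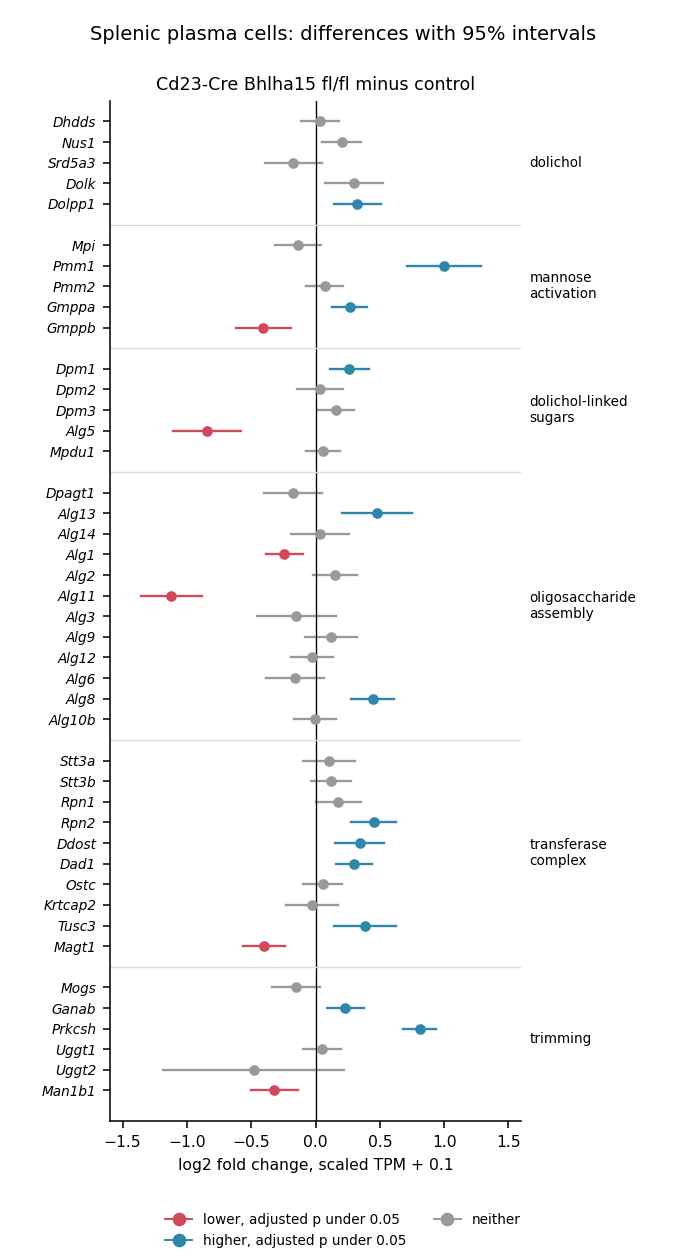
Log2 fold change (scaled TPM + 0.1) with its 95% interval for each of the 43 genes in Cd23-Cre Bhlha15 fl/fl against control splenic PCs, in rows by step. Alg11 and Alg5 lie farthest to the left at -1.12 and -0.84, and Pmm1 and Prkcsh farthest to the right at 1.0 and 0.81.

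In splenic PCs without Mist1 some glycosylation genes were lower and others higher, and none passed the study threshold. Of the 43 genes, 6 were lower in Cd23-Cre Bhlha15 fl/fl than in control PCs, 12 were higher and 25 passed in neither direction. Among the 12028 genes tested, 16.2% were called lower and 13.3% higher, with 0.723% and 0.125% past the study threshold. The median log2 fold change of the 43 genes was 0.06, beside 0.01 for all genes. These counts rest on few libraries: without Cd23-Cre Bhlha15 fl/fl library 1 they were 3 lower and 2 higher, without library 2 they were 2 and 3, without control library 2 they were 10 and 12, and without the trend in eBayes they were 4 and 5. The calls that held in each of 11 alternative settings were 4, namely Alg11 and Alg5 as lower and Pmm1 and Prkcsh as higher.

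Alg11 read 41.1 and 37.5 TPM in control PCs and 18.6 and 17.0 TPM in Cd23-Cre Bhlha15 fl/fl PCs, with a log2 fold change of -1.12 ± 0.10 (adjusted p = 0.0019). Alg5 read 282 and 237 TPM and then 146 and 138 (-0.84 ± 0.11, adjusted p = 0.0047). The genotypes did not overlap for either gene. Pmm1 read 14.2 and 18.2 TPM in the controls and 30.8 and 32.8 in the mutant PCs (1.0 ± 0.12, adjusted p = 0.0036). Prkcsh read 273 and 289.8 TPM and then 492 and 481 (0.81 ± 0.05, adjusted p = 0.0013), whereas its partner in glucosidase II, Ganab, was called higher by 0.23. The mutant libraries of Pmm1 and Prkcsh all lay above the control libraries.

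The other calls in PCs were smaller. In the transferase complex Rpn2, Tusc3, Ddost and Dad1 were higher by 0.45, 0.38, 0.34 and 0.30, and Magt1 was lower. Rpn2 read 1123 and 1079 TPM in controls and 1515 and 1457 in mutant PCs, and Ddost 1469 and 1417 and then 1871 and 1744. Magt1 read 353 and 344 TPM and then 271 and 249.9 (-0.40 ± 0.07, adjusted p = 0.0099), and its ratio to Tusc3 went from 17.6 and 21.9 to 11.8 and 10.99. The ratio of the catalytic subunits overlapped between the genotypes, with Stt3a to Stt3b at 2.58 to 2.73 in controls and 2.61 to 2.65 in mutant PCs. In mannose activation Gmppb, at 229 and 205 and then 166 and 157 TPM, was lower (-0.40 ± 0.09) while Gmppa, at 544 and 574 and then 655 and 669.6 TPM, was higher (0.26 ± 0.05). Man1b1 and Alg1 were lower by -0.32 and -0.24. Alg13, Alg8, Dolpp1 and Dpm1 were higher by 0.48, 0.44, 0.32 and 0.26. Srd5a3 and Mogs, at -0.17 and -0.15, were not called, and neither was Uggt2, which stood at 1.61 and 1.71 against 1.13 and 1.16 TPM (-0.48, 95% interval -1.19 to 0.22). Of the 24 neighbouring genes 3 were lower and 6 higher, none past the study threshold. Over all genes tested in PCs, 16.2% were called lower and 13.3% higher.

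The genes called in PCs without Mist1 were looked up in Bhlha15 CreER/CreER PBs, where none was called. The comparisons share no library. The 6 genes called lower in PCs had a median of -0.17 in PBs and values of 0 or less, with Alg1 at -0.00. The 12 called higher had a median of 0.13 and were all above 0, as were 33 of the 43 genes whatever their call in PCs. These counts changed with single libraries. Without Xbp1 fl/fl library 2, 8 of the 12 and 19 of the 43 were above 0, without Bhlha15 CreER/CreER library 2 it was 10 and 24, and without Bhlha15 CreER/CreER library 1, 4 of the 6 were below 0. Among all genes tested in both, the sign matched for 81.4% of 1820 genes called lower in PCs and 81.6% of 1541 called higher, with medians of -0.14 and 0.11. The sizes differed between the stages for 3 of the 43 genes in a model of all 10 libraries, where 1.94% of 13230 genes had a PB effect lower and 4.17% a PB effect higher than the PC effect. Pmm1 was at 0.25 in PBs and 1.0 in PCs, a difference of -0.76 ± 0.13 (adjusted p = 0.015, limma), and Prkcsh was at 0.22 and 0.81 (difference -0.61 ± 0.10, adjusted p = 0.015). Alg5 was at -0.16 in PBs and -0.84 in PCs (difference 0.66 ± 0.14, adjusted p = 0.031). For Alg11 the difference of 0.61 missed the threshold (adjusted p = 0.056). The stage cannot be told apart from the allele, the control genotype, the culture and the sort, which changed along with it.

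The calls for loss of Xbp1 in PBs and for loss of Mist1 in PCs, which share no library either, were set side by side. All 6 genes lower in PCs without Mist1, namely Gmppb, Alg5, Alg1, Alg11, Magt1 and Man1b1, were among the 30 lower in PBs without Xbp1. Of the 12 higher in PCs, 7 were lower in PBs without Xbp1 (Gmppa, Dpm1, Rpn2, Ddost, Dad1, Ganab and Prkcsh), 4 were called in neither direction there, and Pmm1 was higher in both. Among all genes tested in both comparisons, 5.48% were lower in both, 3.33% were lower without Xbp1 and higher without Mist1, and 2.07% were higher in both, and the set gave 13.95%, 16.3% and 2.33%. The first 2 shares of the set are raised by its 30 of 43 genes lower without Xbp1, of which 17 were called in neither direction in PCs. They therefore do not show a link between the comparisons. Of the PC calls, only those of Alg11, Alg5, Pmm1 and Prkcsh held in every alternative setting.

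**Figure D5:**
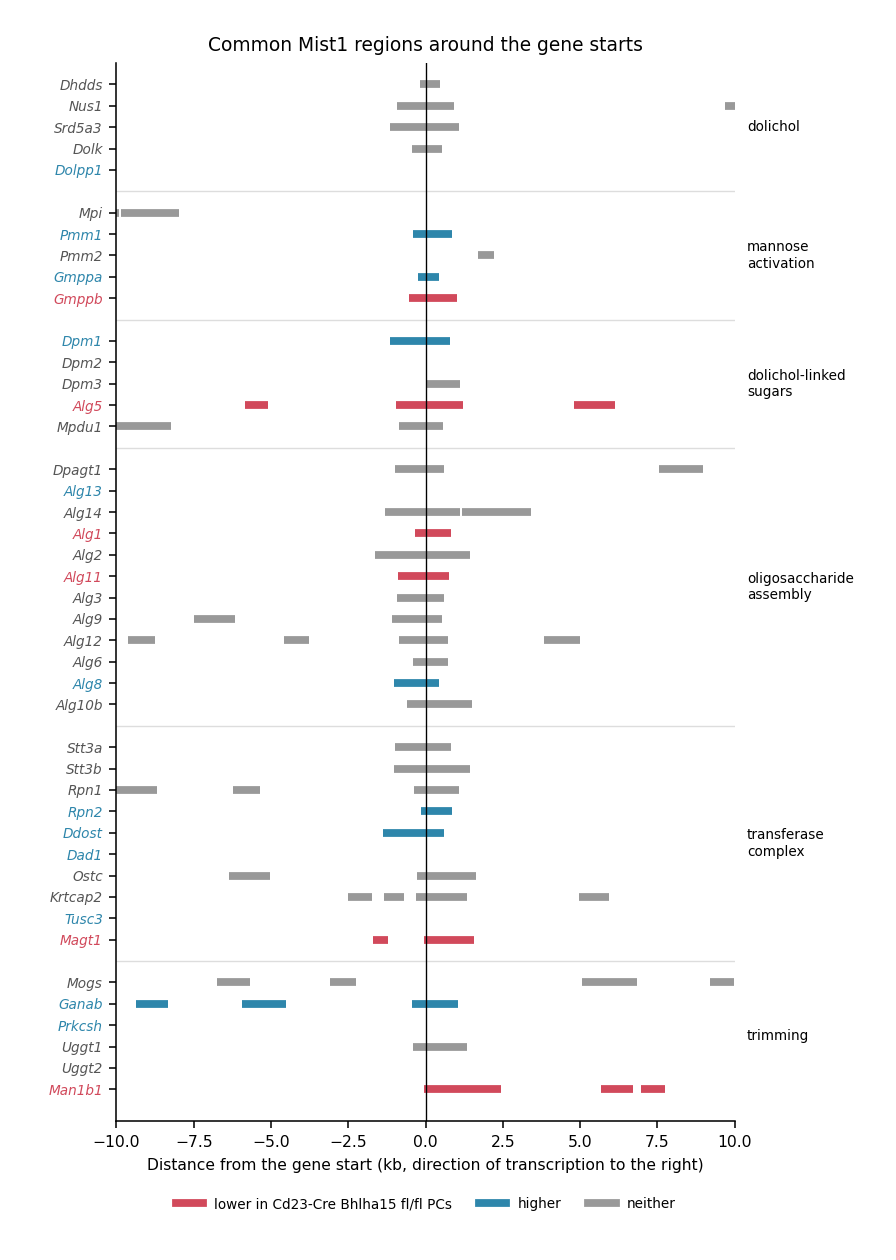
Common Mist1 regions (bars) within 10 kb of the annotated start nearest to a region, for each of the 43 genes in rows by step, with distance in kb and transcription running to the right. Bars and names are colored by the call in splenic PCs, and the 6 genes called lower all have a bar at or next to the start.

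Mist1 binding was laid over these genes with the 23806 regions that the 2 peak lists, of 29413 and 30247 peaks, have in common. The paper reports more peaks for each experiment and more in common, so that genes without a region are so by these shorter lists. The lists give positions without heights, from a pulldown of biotinylated Mist1 in LPS-stimulated PBs, and were made on mm9. A common region lay within 1 kb of an annotated start for 33 of the 43 genes (76.7%), and for 63.2% of 10862 expressed protein-coding genes. By step it was 11 of 12 genes of oligosaccharide assembly, 8 of 10 of the transferase complex and 3 of 6 trimming genes. When the peaks had to share 50% of their length, the count was 28 of 43 and the share of all genes 58.5%. The genes without such a region were Dolpp1, Mpi, Pmm2, Dpm2, Alg13, Dad1, Tusc3, Mogs, Prkcsh and Uggt2.

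Set against the calls in PCs, a region at the start was present for 6 of 6 genes lower without Mist1, 7 of 12 higher and 20 of 25 that were called in neither direction. Over all genes the shares were 85.7%, 59.0% and 66.4%. Alg11 (chr8:23171193 on mm9) and Alg5 (chr3:54539461) each lie in a region, which spans 1657 bp at Alg11 and 2170 bp at Alg5. Prkcsh, called higher, had its nearest common region 46301 bp from a start, and Pmm1, also higher, had 1 across its start. Rpn1, which was not called in PCs, was bound as well.

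The middle 200 bp of each region at a start were read for E-boxes, the letters CANNTG that bind proteins of the Mist1 class. The 33 genes have 35 such regions, Nus1 and Krtcap2 having 2 each, and 17 held at least 1 E-box (48.6%), compared with 58.7% of 7043 regions at starts of expressed genes and 76.7% of all 23806 regions. CAGCTG, which is an instance of CANNTG, was found in 4 of the 35, at Dpm1, Alg5, Alg1 and Alg12 (11.4%), and in 18.6% and 27.9% of the other lists. Alg11 had no E-box in its window and Alg5 had 2. The CAGCTG lay outside annotated exons on mm9 at Alg1, which was lower in PCs without Mist1, and at Alg12, which was not called there (-0.03). Of the others, Alg5 was called lower and Dpm1 higher in PCs. The stretch at Alg1 is shown as an example, with CAGCTG in capitals.
Alg1 (chr16:5234013-5234042, plus strand): cagaggcgggagCAGCTGtgctcctctcct

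Between the control cells of the 2 stages, the levels were set side by side without a test, since culture, sort and processing changed together. Both control PC libraries lay above both Xbp1 fl/fl PB libraries for 20 of the 43 genes, below them for 16, and overlapped them for 7. The same split was not counted over all genes, so that it cannot be read as a trait of this set. Man1b1, with 763 ± 41.2 TPM in control PCs (SD, n = 2) and 380.2 ± 4.35 in PBs, Alg1, Alg12 and Alg5 were 2.01, 1.78, 1.76 and 1.75 times as high in PCs. At the other end, Pmm1, Tusc3, Stt3b and Dad1 stood in PCs at 0.244, 0.332, 0.366 and 0.458 times their level in PBs. Thus Pmm2 was 4.02 and 5.06 times as high as Pmm1 in control PCs and 0.728 and 0.716 times in Xbp1 fl/fl PBs, and the ratio of Stt3a to Stt3b, at 2.58 and 2.73, was above the 1.45 and 1.48 of PBs. The ranking of the transferase subunits at the top was alike in both, with Krtcap2 and Ddost the highest of the 43 genes.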

How the data were processed

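RNA-seq libraries of 5 groups with 2 libraries each and 2 Mist1 peak lists were used. Per the labels and the study's methods, the authors trimmed reads with cutadapt, aligned them with STAR 2.4.2 to mm9, obtained counts by gene from featureCounts 1.5, and the deposited values are TPM without immunoglobulin and T cell receptor genes. Depth cannot be read from TPM, so no counting error is given. Peaks were deposited as positions, from reads aligned with Bowtie 1.0.0 and peaks called with MACS. The meaning of the overlap suffix, carried by 8 of the 43 genes, is not stated in the sources used here.

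Libraries were joined on 24189 gene names, scaled by the median of ratios within the 6 PB or the 4 PC libraries, filtered at 1 TPM in at least 2 libraries, and fitted on log2(TPM + 0.1) with limma 3.58.1 (lmFit, eBayes with trend) in R 4.3.3. The steps, neighbouring genes and markers were lists written by hand, and the 43 genes and these lists were chosen with earlier results of these data known. Genes given with values in every library were those past the study threshold, both genes of 5 related pairs, and the lowest and highest of each step in the Xbp1 and PC comparisons, 25 in all, while other genes are given for context. Motifs and E-boxes were counted with Python 3.11.15 and regions with bedtools 2.31.1 (merge of peaks sharing at least 1 bp) and GENCODE M1. Near-identical transcripts were sought with blastn 2.17.0 at 95% identity over at least 200 bp. The fit was tested on simulated data. The alternatives tried were unscaled TPM, quantile normalization, a pseudocount of 1 or 0.01, no filter or 5 TPM, eBayes without trend, each library left out, models of only the groups compared, and other peak rules.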

Additional observations from a re-analysis of the deposited data

Results flagged for a closer look

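The effect of Mist1 loss differed between PBs and PCs for 3 of the 43 genes by the interaction term of the model of all 10 libraries (limma, Benjamini-Hochberg over 13230 genes). The difference, given as the PB effect minus the PC effect on the log2 scale, was -0.76 for Pmm1, -0.61 for Prkcsh and 0.66 for Alg5. In each case both effects pointed the same way and the one in PCs was larger, with both mutant PC libraries on one side of both controls. The genes kept these calls with TPM as deposited and with a pseudocount of 1. Stage cannot be told apart from the allele, the control genotype, the culture and the sort.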

How the results depend on the processing

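No paired analysis was possible because the labels carry no replicate numbers shared between the groups compared. With TPM as deposited, the Xbp1 comparison gave 4 of the 43 genes higher and medians of -0.77 over the 43 genes, -1.68 for the transferase complex, -1.09 for trimming, -0.69 for oligosaccharide assembly, -0.083 for dolichol-linked monosaccharides, -0.068 for dolichol supply and 0.20 for mannose activation, as all genes shifted by 0.21. Quantile normalization gave 4 higher and medians of -1.65 for the transferase complex, -1.11 for trimming, -0.18 for dolichol-linked monosaccharides and 0.11 for mannose activation. The count of higher genes was 4 with only the groups compared and 1 without the eBayes trend, and the trimming median was -1.62 with a filter of 5 TPM, which removes Uggt2. Between the mutant PBs, the count of higher genes was 4 without scaling and 3 with quantile normalization. In PCs, 5 genes were higher without the trend. The interaction gave 2 higher with a pseudocount of 1, Alg11 being added. The other causes were not tested.

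Leaving out each library in turn gave 28 to 31 lower and 1 to 4 higher in the Xbp1 comparison, 11 to 13 past the study threshold, and medians of -1.0 to -0.95 overall and -0.41 to -0.14 for dolichol supply. Between the mutant PBs it gave 28 to 33 lower and 1 to 2 higher, where the count of 2 came without Bhlha15 CreER/CreER library 2. In PCs it gave 2 to 10 lower and 2 to 14 higher, and a lone library was then taken to vary like the others of the model. No gene was called in Bhlha15 CreER/CreER PBs in any of these. Of 287 alternative values of counts and medians, 253 stayed within 1.5 times the count or the spread between libraries, and none of the 25 genes given by library changed sign where it was called. The median for mannose activation, which was -0.00, was also above 0 without Xbp1 fl/fl library 1 (0.06) and without Cd23-Cre Xbp1 fl/fl library 1 (0.00), and the median of the 43 genes in Bhlha15 CreER/CreER PBs, which was 0.07, was -0.00 without Xbp1 fl/fl library 2. Of the 25 genes given by library, 2 lost the Xbp1 call in some setting and 9 the PC call. TPM carry no read number, so precision rests on 2 libraries per group.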
